A study of Mus musculus with 6 samples.

Results

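The clustered histone genes of the mouse were followed through spermatogenesis in single cells of the testis. They were taken as the genes whose symbol begins with Hist1h, Hist2h, Hist3h or Hist4h, which are 67 of the 32285 genes counted. Of these, 6 encode the linker histone H1, 18 encode H2A, 18 encode H2B, 12 encode H3 and 13 encode H4. The libraries came from testes of 8-week-old wild-type male mice, C57BL/6 in the labels and C57BL/6N in the methods of the study, that had been kept for 2 weeks on purified food rich in fat (HFD) or on a control food low in fat (LFD), with 3 libraries per diet. Unique molecular identifiers (UMIs), which mark single captured RNA molecules, were counted per gene and per barcode, where a barcode labels the droplet that held a cell. Levels are given as UMIs per 1000000 UMIs (CPM) of the same barcodes. The GEO titles give the opposite diet to the names of the deposited files for all 6 libraries. Groups follow the titles here, so HFD and LFD name the labelled diet, and every direction by diet would turn if the file names were right. The methods of the study give 3 mice per diet for this assay, the same number as the libraries.

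The libraries held 48939 barcodes (5753 to 11095 per library) and 39196921 to 95845514 UMIs each. A pair of libraries shared 12 to 28 barcode sequences. The replicate 1 library of each diet held next to no UMIs of haemoglobin genes (0.0209 CPM and 0 CPM), against 30.5 to 99.7 CPM in the other 4 libraries, and values by diet are therefore also given within these sets. Germ cell stages were set from the share of UMIs of marker genes in each barcode, and no clustered histone gene was among the markers. In all, 9896 barcodes with 70.1% of the UMIs fell into 11 germ cell stages, 476 into 3 somatic classes and 38567 shallow or unclear barcodes (median 2407 UMIs) into none. The stages run from spermatogonia, with markers such as Uchl1 and Sall4, through early meiotic prophase with and without Stra8, the gatekeeper of meiotic entry, to early and late pachytene with Piwil1, late spermatocytes with Ccna1, round spermatids with acrosome genes, and spermatids that start to elongate, elongate and condense with transition protein and protamine transcripts. Here with Stra8 means at least 3 UMIs of Stra8 per 10000, and the stage called without Stra8 is one of low Stra8, since 149 of its 882 barcodes (16.9%) held a UMI of it. The condensing stage had 15 barcodes in HFD replicate 2 and was described but not tested.

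Histones wrap DNA into nucleosomes, with H2A, H2B, H3 and H4 in the core and H1 on the linker DNA. Most clustered genes are replication-dependent. They are transcribed in S phase under the coactivator NPAT, and their mRNAs usually end in a conserved stem-loop that binds SLBP in place of a poly(A) tail. Germ cells also use variants made only or mainly in the testis, among them H1t (Hist1h1t), TH2A (Hist1h2aa) and TH2B (Hist1h2ba), which enter chromatin in spermatogonia and spermatocytes, before spermatids exchange most histones for transition proteins and then protamines. The libraries were primed on poly(A), so a transcript that ends at its stem-loop is captured poorly, and a level here is one of polyadenylated RNA.

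Of the 67 genes, 54 lie on chromosome 13, 10 on chromosome 3, 2 on chromosome 11 and 1 on chromosome 6. The genes of the testis variants and those that later dominated in spermatids lie in the same cluster on chromosome 13. Hist1h2aa (chr13:23934462-23934851, plus strand) and Hist1h2ba (chr13:23933773-23934156, minus strand) are transcribed away from each other from starts that lie 305 bases apart. The 250 bases before the RefSeq start of 4 genes are shown in the direction of transcription, from RefSeq on GRCm38.p6, because each stands for a stage pattern described further on. Capitals mark the motif CCAAT, the motif TATAAA, the octamer ATTTGCAT and the motif TGACGTCA on either strand. The stretch of Hist1h2aa (chr13:23934187-23934436, plus strand) overlaps that of Hist1h2ba (chr13:23934157-23934406, minus strand), so its letters serve both genes. Those of the others are chr13:23695561-23695810 (plus strand) for Hist1h1t, chr13:21787238-21787487 (plus strand) for Hist1h2bp and chr13:23761250-23761499 (minus strand) for Hist1h4a.
Hist1h2aa: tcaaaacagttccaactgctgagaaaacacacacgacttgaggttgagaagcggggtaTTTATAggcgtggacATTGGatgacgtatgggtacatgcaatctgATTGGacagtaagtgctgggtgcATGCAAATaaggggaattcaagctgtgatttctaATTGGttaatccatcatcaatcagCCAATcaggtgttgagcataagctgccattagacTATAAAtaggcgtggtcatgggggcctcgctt
Hist1h1t: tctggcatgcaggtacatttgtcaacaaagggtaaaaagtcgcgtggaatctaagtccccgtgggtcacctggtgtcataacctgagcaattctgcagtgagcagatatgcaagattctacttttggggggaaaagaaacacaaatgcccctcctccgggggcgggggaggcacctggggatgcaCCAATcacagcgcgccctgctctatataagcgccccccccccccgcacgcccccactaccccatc
Hist1h2bp: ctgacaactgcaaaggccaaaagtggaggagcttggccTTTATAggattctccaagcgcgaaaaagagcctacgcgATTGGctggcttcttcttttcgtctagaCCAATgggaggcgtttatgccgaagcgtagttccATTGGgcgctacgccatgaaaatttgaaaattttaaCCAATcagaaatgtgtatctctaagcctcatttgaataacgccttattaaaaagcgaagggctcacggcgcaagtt
Hist1h4a: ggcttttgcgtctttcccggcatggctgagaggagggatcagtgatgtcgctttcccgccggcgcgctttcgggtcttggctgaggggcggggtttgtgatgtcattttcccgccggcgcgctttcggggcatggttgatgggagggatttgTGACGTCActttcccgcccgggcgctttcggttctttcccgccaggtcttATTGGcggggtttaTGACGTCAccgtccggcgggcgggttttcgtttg

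Promoter windows were at hand for 62 of the 67 genes. CCAAT was found in 51 of these 62, among them 6 of 6 H1, 18 of 18 H2A, 16 of 16 H2B and 8 of 10 H3 windows but 3 of 12 H4 windows, against 33.8% of 32851 promoter windows of the same length. TATAAA was found in 29 (12.4% of all windows). The octamer ATTTGCAT, a site of POU factors that is known from H2B promoters, was found in 14, of which 7 were H2A and 7 H2B genes (1.60% of all windows). TGACGTCA, the full cAMP response element, was found in 4, Hist1h2ag, Hist1h2bj, Hist1h4h and Hist1h4a (1.55% of all windows), and Hist1h4a holds it at 2 places. No motif is contained in another, both strands were searched, and a match describes the letters only. Many H2A and H2B genes lie in pairs that are transcribed away from each other, such as Hist1h2ag and Hist1h2bj, 269 bases apart. The windows of such a pair can overlap, so that a site can be counted for both genes.

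The ends of the annotated transcripts differ as well, and the stem-loops are shown for that reason, with the whole 16-base match in capitals. Hist1h2ap has its stem-loop at chr13:21833029-21833044 (minus strand) and its annotated transcript ends 3 bases later, Hist1h4c has it at chr13:23698089-23698104 (minus strand) with 454 bases after it, and Hist1h1t has it at chr13:23696525-23696540 (plus strand) with 185 bases after it.
Hist1h2ap: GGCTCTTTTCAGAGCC
Hist1h4c: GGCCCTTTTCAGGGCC
Hist1h1t: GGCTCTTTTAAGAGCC
A stem-loop was found in an annotated transcript of 44 of the 67 genes. In 21 of them every annotated transcript ends within 100 bases of it, and these 21 genes gave 11.7% of the UMIs. The models of Hist1h2aa, Hist1h2ba, Hist1h1a and Hist1h4a hold no stem-loop, and those of Hist1h2aa and Hist1h2ba end with the coding sequence. Hist1h2bp has a single-exon transcript with a stem-loop (chr13:21787923-21787938, plus strand, 38 bases before its end) and a 2-exon transcript without one.

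In all, 163127 UMIs of clustered histone genes were counted. H2B genes gave 47.1% of them, H1 genes 18.2%, H2A genes 14.8%, H4 genes 14.3% and H3 genes 5.65%, and Hist1h1t, Hist1h2aa and Hist1h2ba together gave 22.7%. Hist1h2bq and Hist2h3b had 0 UMIs. At least 30 UMIs within the germ cell stages were counted for 47 genes, and 20 genes had fewer. Only uniquely mapped reads are counted, and over 50% of the 90-base windows in the last 300 bases of the transcript have an identical copy elsewhere in the annotated transcripts for 29 genes (8.41% of the UMIs), whose levels are uncertain for that reason. For a gene with several annotated transcripts, the one with the smallest share was used. Hist1h2bp, with 38.9% of the UMIs, is thus not among the 29, although the share is 59.2% in its single-exon transcript.

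The sum of all 67 genes followed 2 waves. It was 975 ± 363 CPM (SD, n = 6) in spermatogonia and 3627 ± 904 CPM in early meiotic spermatocytes with Stra8, and then fell to 839 ± 122 CPM in those without Stra8, 458 ± 84.2 CPM in early pachytene and 145 ± 16.1 CPM in late pachytene. From 167 ± 17.2 CPM in late spermatocytes it came back to 387 ± 34.2 CPM in early round spermatids, 565 ± 35.6 CPM in later round spermatids and 530.1 ± 23.2 CPM at the start of elongation, and was 116 ± 5.56 CPM in elongating and 59.9 ± 12.004 CPM in condensing spermatids. The 6 libraries of the Stra8 stage lay between 2724 and 5178 CPM, above every library of every other stage. Sums over the genes are descriptions and carry no test.

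**Figure D1:**
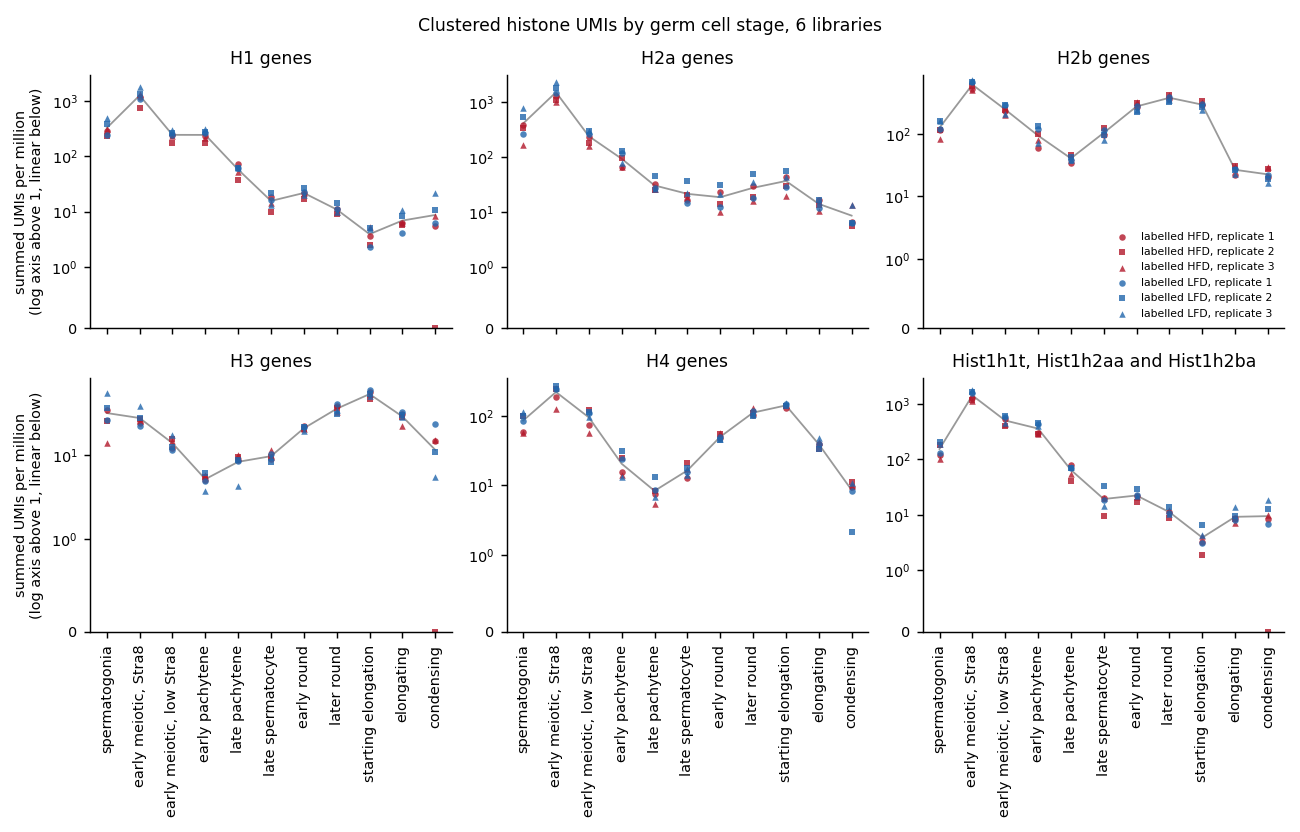
Summed UMIs per 1000000 UMIs of the H1, H2A, H2B, H3 and H4 genes and of the 3 testis variants (Hist1h1t, Hist1h2aa, Hist1h2ba) in the 11 germ cell stages, on an axis that is logarithmic above 1 and linear below. Each point is a library (red labelled HFD, blue labelled LFD, with circle, square and triangle for replicates 1, 2 and 3), and the grey line is the mean. The means of H1, H2A, H2B and H4 are highest in early meiotic cells with Stra8, at 1270.0, 1493, 615 and 222 CPM. In spermatids H2B comes back to 379 CPM, H4 to 142 CPM, H3 to 52.9 CPM and H2A to 36.6 CPM, while H1 is at 3.92 CPM at the start of elongation.

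Both waves are described here by type. In early meiotic cells with Stra8 the H2A genes summed to 1493 ± 494 CPM, the H1 genes to 1270.0 ± 352 CPM, the H2B genes to 615 ± 93.4 CPM, the H4 genes to 222 ± 54.9 CPM and the H3 genes to 27.4 ± 5.83 CPM. In later round spermatids the H2B genes made up 67.2% of the histone UMIs at 379 ± 39.1 CPM, and the H1 genes had dropped to 10.97 ± 1.89 CPM. At the start of elongation the H4 genes were at 142 ± 7.55 CPM, the H3 genes at 52.9 ± 4.52 CPM and the H1 genes at 3.92 ± 1.31 CPM. The H2A genes were at 18.6 ± 7.82 CPM in early round spermatids and 36.6 ± 12.9 CPM at the start of elongation. The H3 genes had a higher mean in this spermatid stage than in any earlier one, although the range of the libraries (45.8 to 58.7 CPM) overlaps that in spermatogonia (13.7 to 53.9 CPM).

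The 3 testis variants made up a rising share of the histone UMIs up to early pachytene. Their share of the histone UMIs was 15.8% in spermatogonia, 39.7% and 61.6% in early meiotic cells with and without Stra8, 77.1% in early pachytene and 44.3% in late pachytene. It was 5.72% in early round spermatids and 0.675% at the start of elongation. A share also rises when the other genes fall. By level Hist1h2aa and Hist1h2ba were highest with Stra8, at means of 1047 and 328 CPM, and Hist1h1t in early pachytene, at 235 CPM.

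Among the 47 genes with at least 30 UMIs, 33 had their highest mean in spermatogonia or early meiotic cells, and 26 of these in early meiotic cells with Stra8. By type these were 5 of 6 H1, 7 of 14 H2A, 9 of 11 H2B, 5 of 8 H3 and 7 of 8 H4 genes. Another 4 (Hist1h1t, Hist3h2a, Hist2h2ac and Hist2h2ab) were highest in early pachytene and 3 (Hist2h2be, Hist2h3c2 and Hist2h3c1) in late pachytene. The remaining 7 were highest in later round spermatids (Hist1h2bp, Hist1h2ag and Hist2h2aa2) or at the start of elongation (Hist1h4a, Hist1h3a, Hist2h2aa1 and Hist1h2ad). The highest stage was the same in all 6 libraries for 21 of the 47 genes.

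**Figure D2:**
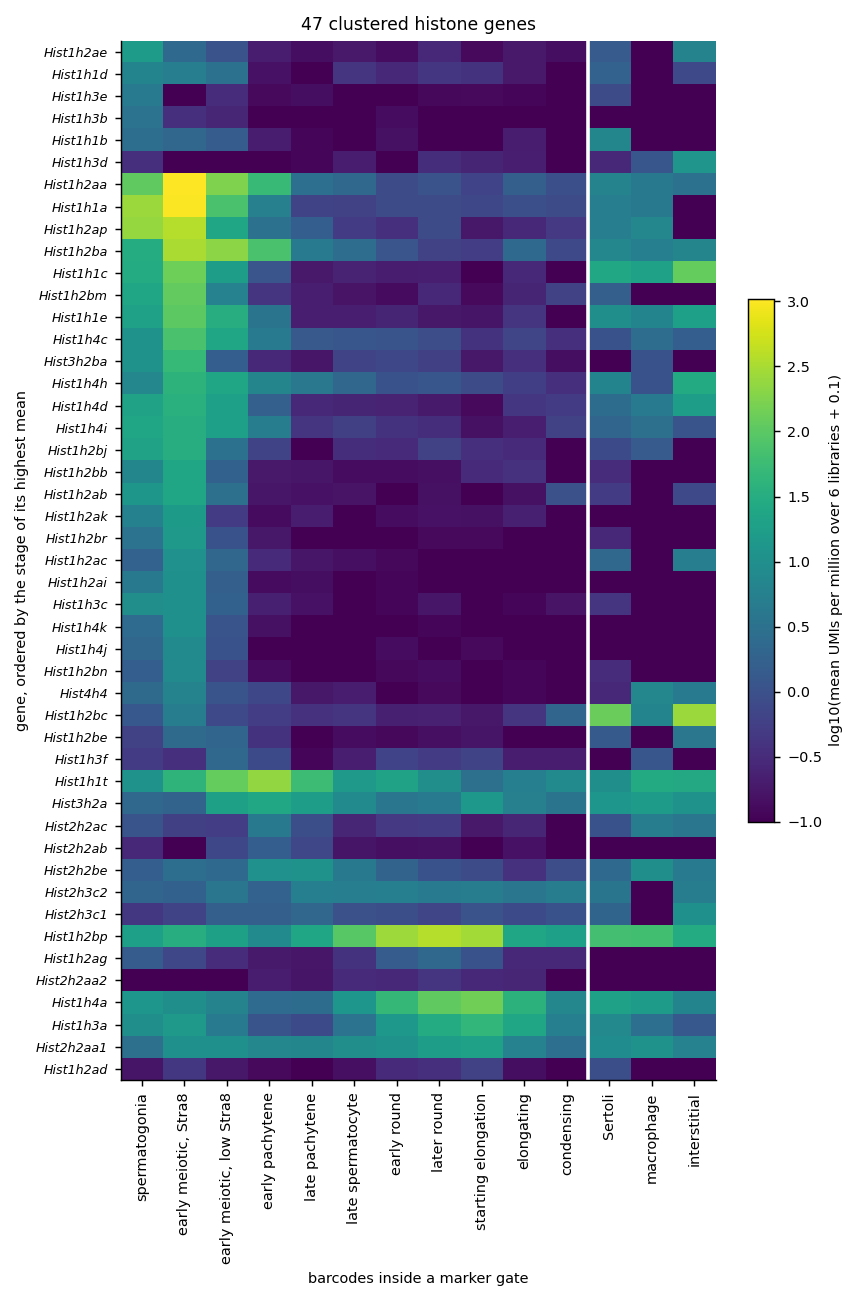
Mean level over the 6 libraries of the 47 genes with at least 30 UMIs (rows) in 11 germ cell stages and 3 somatic classes (columns), as log10 of CPM + 0.1. The largest block, with 26 genes, is brightest in early meiotic cells with Stra8, and 7 genes are brightest in later round spermatids or at the start of elongation.

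Consecutive stages were compared within libraries to ask where each gene changed. Of the 67 genes, 34 passed the filter on low counts over all stages and 33 did not and were not tested. A gene can pass that filter through the stage in which it is high, so the counts describe the genes tested and not all 67. Against spermatogonia, 22 of the 34 genes were higher and 1 was lower in early meiotic cells with Stra8, where 14.8% of the 15817 genes tested were higher and 27.4% lower. The median log2 change of the 34 was 1.42, against -0.14 over all genes tested. Without Stra8 against with Stra8, 2 were higher and 24 lower (27.2% and 20.6% of all genes), with medians of -2.18 and 0.04. From there to early pachytene, 3 were higher and 28 lower (29.1% and 36.3% of all genes), and from early to late pachytene 2 were higher and 13 lower (25.8% and 35.2%). The scaling moved the background of these comparisons. DESeq2 shifted the median over all genes by 0.18, -0.47 and -0.31 in the first 3, and its calls over all genes were 3255 higher and 3493 lower, 2621 and 5474, and 3513 and 7347, against 2345 and 4338, 4308 and 3266, and 4601 and 5747 in edgeR. No histone gene was called in the opposite direction under any alternative.

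Hist1h2aa, the gene of TH2A, rose at the entry into meiosis. With the libraries in the order HFD replicates 1, 2 and 3 and LFD replicates 1, 2 and 3, here and below, it was at 85.3, 140.2, 69.9, 88.1, 145 and 137 CPM in spermatogonia and at 908, 855, 806, 1136, 1242 and 1336 CPM in early meiotic cells with Stra8. The stages did not overlap, and the log2 change was 3.10 ± 0.17 (SE), adjusted p = 4.59e-25. It was then at 163, 141, 125, 207, 216 and 193 CPM without Stra8 and 26.2, 52.9, 32.1, 71.6, 75.3 and 43.9 CPM in early pachytene, and at 2.83 ± 1.80 CPM in late pachytene, where the log2 change from early pachytene was -4.12 ± 0.23 (SE), adjusted p = 1.3e-25. Its neighbour Hist1h2ba, the gene of TH2B, was at 22.6, 31.4, 17.5, 33.8, 38.5 and 43.1 CPM in spermatogonia and 300.1, 309, 261, 367, 364 and 367 CPM with Stra8, a log2 change of 3.28 ± 0.19 (SE), adjusted p = 1.28e-23. Hist1h2ba stayed high for longer. It was at 209, 188, 176, 253, 249 and 172 CPM without Stra8 (log2 change -0.40 ± 0.16 (SE), adjusted p = 0.0274), where Hist1h2aa changed by -2.35 ± 0.16 (SE), adjusted p = 1.22e-20. Of the windows at the end of the Hist1h2ba transcript, 41.7% have a copy elsewhere, and none of Hist1h2aa has.

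Hist1h1t, the gene of the pachytene linker histone H1t, came later. It was at 9.62, 6.46, 12.5, 8.94, 22.6 and 8.62 CPM in spermatogonia, at 154, 71.9, 135, 122, 140.3 and 93.5 CPM in early meiotic cells without Stra8 and at 229, 167, 199, 255, 255 and 306 CPM in early pachytene. All libraries of early pachytene were above all of spermatogonia, and the log2 changes were 1.81 ± 0.16 (SE), adjusted p = 2.6e-15, into early meiotic cells without Stra8 and 1.16 ± 0.11 (SE), adjusted p = 7.91e-15, into early pachytene. It fell to 71.3, 37.5, 51.1, 61.03, 58.1 and 62.97 CPM in late pachytene (-1.87 ± 0.11 (SE), adjusted p = 4.91e-25) and to 14.5 ± 4.25 CPM in late spermatocytes (-1.93 ± 0.13 (SE), adjusted p = 5.3e-22). It was then a little higher again in early round spermatids, at 19.4, 16.2, 20.4, 21.8, 25.8 and 19.8 CPM (0.76 ± 0.13 (SE), adjusted p = 1.3e-06), and lower in each of the following stages up to 2.92 ± 1.26 CPM at the start of elongation.

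**Figure D3:**
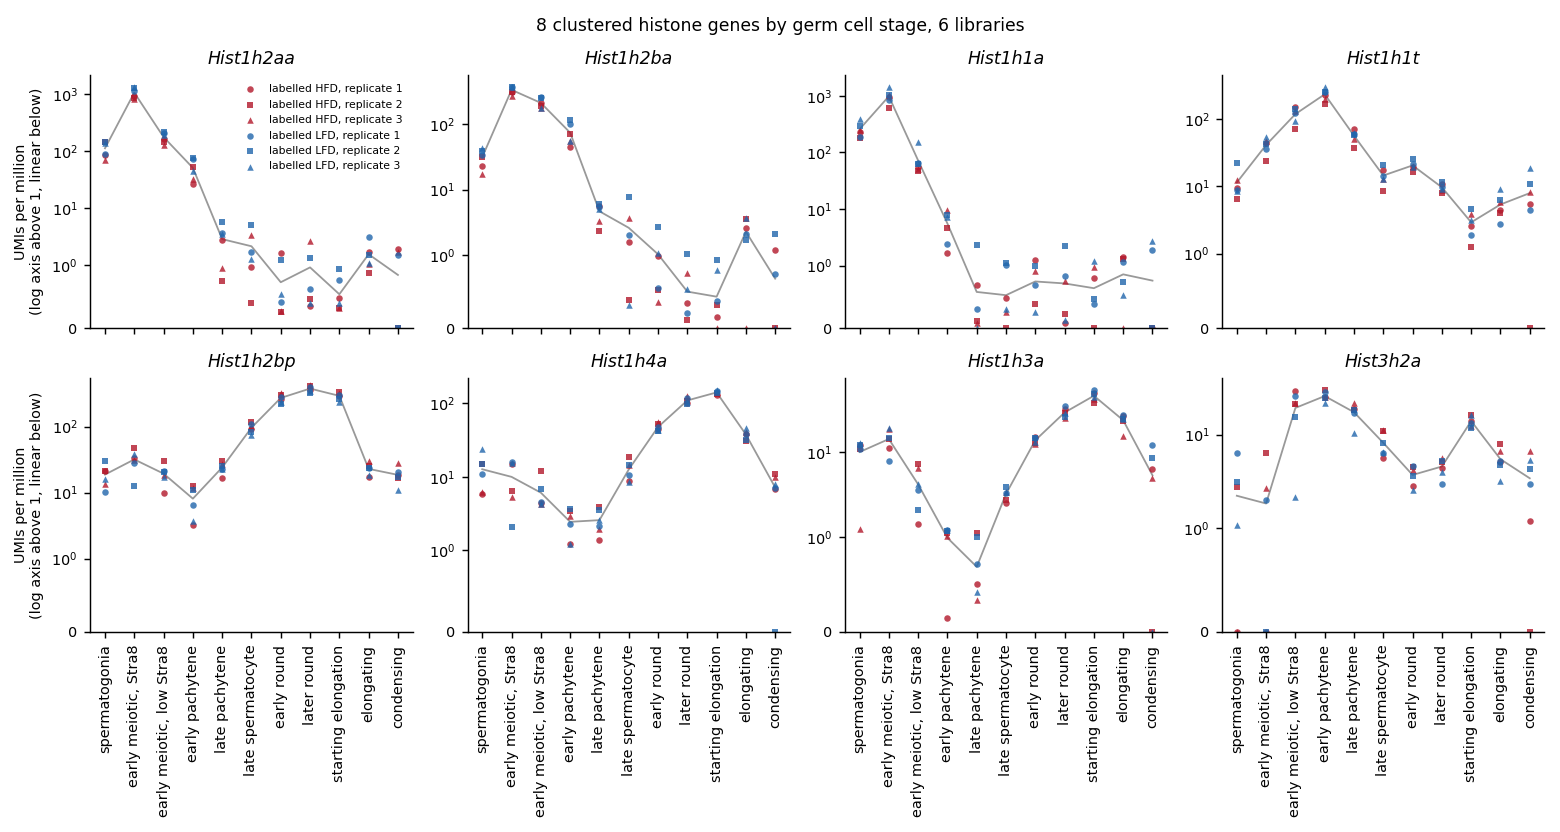
UMIs per 1000000 UMIs of Hist1h2aa, Hist1h2ba, Hist1h1a, Hist1h1t, Hist1h2bp, Hist1h4a, Hist1h3a and Hist3h2a in the 11 germ cell stages, with points, colours and axis as in the plot of histone types. Hist1h2aa, Hist1h2ba and Hist1h1a peak in early meiotic cells with Stra8 (means 1047, 328 and 984 CPM), Hist1h1t in early pachytene (235 CPM), Hist1h2bp in later round spermatids (376 CPM) and Hist1h4a and Hist1h3a at the start of elongation (141 and 46.3 CPM).

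The linker histone gene Hist1h1a peaked at the same stage as Hist1h2aa. It was at 230.1, 184, 252, 189.6, 295 and 390.2 CPM in spermatogonia and 939, 606, 1017, 838, 1042 and 1459.5 CPM in early meiotic cells with Stra8, without overlap (log2 change 1.80 ± 0.15 (SE), adjusted p = 1.74e-16). Without Stra8 it was at 55.2, 46.1, 50.98, 64.04, 63.2 and 153 CPM, a log2 change of -3.64 ± 0.17 (SE), adjusted p = 6.35e-29, and in early pachytene at 5.53 ± 3.13 CPM. Hist1h1c was at 151, 83.9, 148, 104, 141 and 178 CPM with Stra8 and at 12.4, 17.2, 11.8, 18.96, 21.3 and 23.4 CPM without (log2 change -2.72 ± 0.20 (SE), adjusted p = 6.08e-19). Hist1h1e was at 103 ± 35.7 CPM with Stra8, 32.2 ± 5.38 CPM without and 3.42 ± 1.97 CPM in early pachytene, where its log2 change was -2.94 ± 0.21 (SE), adjusted p = 3.11e-20. The annotated transcript of Hist1h1e overlaps Gm11398 and Hist1h2be on the same strand, so its UMIs cannot be assigned to it alone. Hist1h1d was low, at 6.41 ± 3.67 CPM in spermatogonia and 5.09 ± 3.47 CPM with Stra8.

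Several core histone genes other than the testis variants shared the peak with Stra8. The H2B gene Hist1h2bm was at 17.6, 25.8, 16.2, 21.7, 28.2 and 29.1 CPM in spermatogonia, 83.9, 104, 94.6, 134, 116 and 151 CPM with Stra8 and 4.72, 5.88, 2.36, 8.71, 5.31 and 8.50 CPM without, with log2 changes of 2.16 ± 0.19 (SE), adjusted p = 4.59e-16, and -4.07 ± 0.22 (SE), adjusted p = 1.77e-25. Hist3h2ba, an H2B gene on chromosome 11, had 11.7 ± 3.53 CPM, 49.02 ± 8.69 CPM and 1.48 ± 0.562 CPM in the same stages and fell by 4.83 on the log2 scale between the last 2 (SE 0.29). The H4 gene Hist1h4c was at 6.69, 20.3, 6.24, 12.1, 12.8 and 9.70 CPM in spermatogonia and 65.2, 79.1, 33.3, 81.8, 107 and 69.5 CPM with Stra8, again without overlap (2.55 ± 0.22 (SE), adjusted p = 2.6e-16). Hist1h4d and Hist1h4i, also H4 genes, were at 35.6 ± 13.1 CPM and 32.05 ± 14.5 CPM with Stra8. The log2 change of Hist1h4d into early pachytene was -3.12 ± 0.24 (SE), adjusted p = 5.01e-19, and that of Hist1h4i into late pachytene -4.02 ± 0.36 (SE), adjusted p = 6.15e-16. The H2A gene Hist1h2ae was the only one of the 34 to fall from spermatogonia to cells with Stra8, from 23.4, 10.1, 1.25, 15.3, 7.69 and 42.04 CPM to 2.26 ± 1.53 CPM (-2.58 ± 0.50 (SE), adjusted p = 1.41e-05), and its spermatogonial levels varied widely between libraries. The H2A gene Hist1h2ap was at 234, 149, 79.9, 112, 334 and 553 CPM in spermatogonia and 326, 177, 132, 239.5, 455 and 876 CPM with Stra8, where the libraries overlap and the call (log2 change 0.44 ± 0.19 (SE), adjusted p = 0.047) is not made by DESeq2 (adjusted p = 0.463).

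To see which of these transcripts go with DNA synthesis, the barcodes of spermatogonia and early meiotic cells were ranked within each stage and library by the UMI share of 21 S-phase genes such as Pcna, Mcm2 and Rrm2, and the third with the highest share was compared with the third with the lowest (639 barcodes each). Of 18 clustered histone genes tested, 12 were higher and 2 lower in the high barcodes, where 17% of 9650 genes were higher and 18.5% lower. DESeq2 called 10 higher and 1 lower. The median log2 difference was 0.89 for the 18 and -0.02 over all genes. The other 49 did not pass the filter. The S-phase share can also follow how far a cell has moved through its stage. From cells with Stra8 to those without, 17 of the 21 S-phase genes were lower and 3 higher. Over the same step Hist1h1a and Hist1h2aa fell and Hist1h1t rose. The comparison therefore cannot tell S phase apart from the position of a cell within its stage.

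Hist1h2ap had the largest difference of the 18. It was at 292, 168, 94.7, 167, 453 and 821 CPM in the high barcodes and at 46.6, 32.1, 27.1, 35.5, 95.6 and 133 CPM in the low ones, higher in 6 of 6 libraries (log2 difference 2.33 ± 0.11 (SE), adjusted p = 1.62e-11). Hist1h1a was at 455 ± 126 CPM in the high and 158 ± 55.2 CPM in the low barcodes (1.504 ± 0.08 (SE), adjusted p = 1.51e-10), and Hist1h1c at 66.6 ± 14.1 CPM in the high and 24.2 ± 6.29 CPM in the low barcodes (1.43 ± 0.13 (SE), adjusted p = 2.03e-07). The testis variants did not move together. Hist1h2aa was at 273, 376, 324, 372, 420.3 and 404 CPM in the high and 125, 199, 221, 238, 205 and 253 CPM in the low barcodes, with a smaller log2 difference of 0.79 ± 0.09 (SE), adjusted p = 1.9e-06. Hist1h2ba was at 142 ± 35.7 CPM in the high and 142 ± 33.9 CPM in the low barcodes and did not pass the test (-0.03 ± 0.14 (SE), adjusted p = 0.883). Hist1h1t was lower in the high barcodes in 5 of 6 libraries, at 40.2 ± 18.3 CPM in the high and 63.3 ± 16.1 CPM in the low barcodes (-0.62 ± 0.18 (SE), adjusted p = 0.0122), and is not called without HFD replicate 3 (adjusted p = 0.0538) or without LFD replicate 1 (adjusted p = 0.0523). Hist1h2bp also passed in the downward direction (-0.55 ± 0.19 (SE), adjusted p = 0.0315), but not in DESeq2 (adjusted p = 0.161) nor without HFD replicate 1, LFD replicate 1 or LFD replicate 2 (adjusted p = 0.121, 0.121 and 0.0662). Hist3h2ba and Hist1h4c passed upwards but not in DESeq2 (adjusted p = 0.0698 and 0.119).

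**Figure D4:**
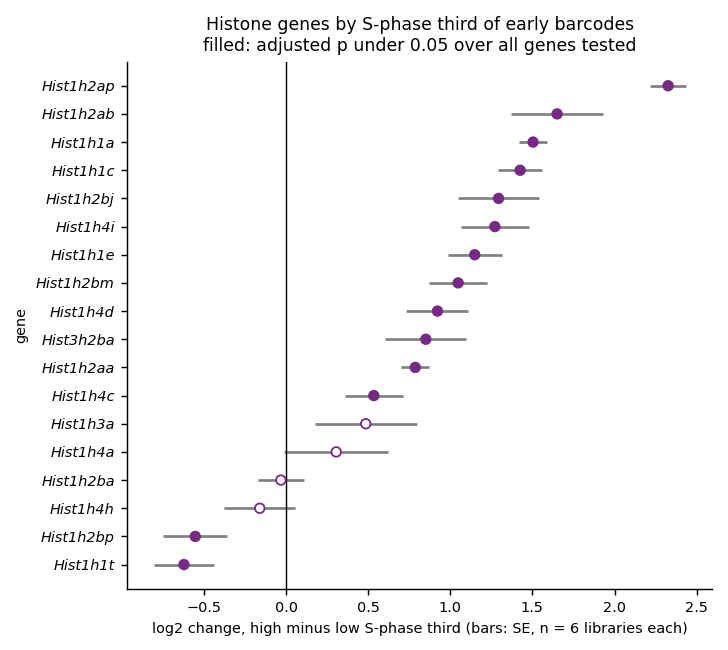
Log2 difference between the third of barcodes with the highest and the third with the lowest share of S-phase UMIs within spermatogonia and early meiotic cells, with its standard error, for the 18 clustered histone genes tested. Filled points have an adjusted p under 0.05 in edgeR. Hist1h2ap stands at 2.33, the testis variants Hist1h2aa, Hist1h2ba and Hist1h1t at 0.79, -0.03 and -0.62.

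Genes that make and process histone mRNA were read from a list of 14. In cells with Stra8 9 of them were higher and 2 lower than in spermatogonia (14.8% and 27.4% of all genes). Without Stra8 2 were higher and 8 lower (27.2% and 20.6% of all genes), and in the S-phase comparison 9 of 13 tested were higher (17% of all genes). Npat, the coactivator of histone genes, went from 81.8 ± 14.9 CPM to 191 ± 33.5 CPM with Stra8 and 52.5 ± 12.8 CPM without (log2 changes 1.11 and -1.67). Casp8ap2, which encodes the histone locus body protein FLASH, fell from 198 ± 45.8 CPM to 49.8 ± 12.5 CPM in early pachytene (-1.72) and to 4.38 ± 0.962 CPM in late pachytene (-3.34). E2f1, an activator of S-phase genes, fell from 14.1 ± 5.04 CPM to 0.141 ± 0.203 CPM in early pachytene (-5.77). Slbp, whose product binds the stem-loop, was at 413 ± 30.3 CPM with Stra8 and still at 149 ± 7.81 CPM in early round spermatids. Of the 21 S-phase genes themselves, 7 were higher and 7 lower with Stra8 than in spermatogonia, and 3 were higher and 17 lower without Stra8, beside the same shares of all genes, among them Rrm2 with 45.4, 141 and 20.9 CPM in the 3 stages (1.51 and -2.67).

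Of 18 histone chaperones, which hand histones to and from DNA, 3 were higher and 7 lower with Stra8 than in spermatogonia (14.8% and 27.4% of all genes), and 6 were higher and 10 lower in early pachytene than in the stage before (29.1% and 36.3%). In the S-phase comparison 7 of 17 were higher and 2 lower (17% and 18.5%). The counts higher with Stra8 and in early pachytene lie near the share of all genes. Asf1b, an H3-H4 chaperone of proliferating cells, was at 107 ± 16.95 CPM in spermatogonia and 284 ± 35.9 CPM with Stra8 (1.28). Hat1, which acetylates new H4, fell to 25.1 ± 4.38 CPM in early pachytene (-2.62), was at 8.85 ± 2.24 CPM in late pachytene and rose to 48.7 ± 8.39 CPM in late spermatocytes (2.58) and 84.2 ± 2.27 CPM in early round spermatids. From early to later round spermatids 13 of the 18 were lower (30.5% of all genes).

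Pachytene cells had low sums but a few genes of their own. Hist3h2a, an H2A gene on chromosome 11, was at 1.83 ± 2.49 CPM with Stra8, at 29.1, 21.3, 21.7, 26.1, 15.4 and 2.13 CPM without and at 24.97, 29.8, 25.1, 28.7, 24.4 and 21.9 CPM in early pachytene. It rose at the first of these steps (3.52 ± 0.48 (SE), adjusted p = 2.15e-09), and at the second its call (0.496 ± 0.18 (SE), adjusted p = 0.012) is not made by DESeq2 (adjusted p = 0.236) or without HFD replicate 2 (adjusted p = 0.0617). LFD replicate 3 was far below the others without Stra8. Hist3h2a overlaps Trim17 on the same strand, so UMIs of the overlap cannot be told apart. Hist2h2be, an H2B gene on chromosome 3, was at 1.09, 3.17, 2.83, 2.05, 2.13 and 2.13 CPM without Stra8, 10.1, 13.1, 11.9, 11.3, 5.12 and 12.2 CPM in early pachytene and 11.03, 14.2, 12.5, 9.95, 11.1 and 8.996 CPM in late pachytene, with a log2 change of 2.48 ± 0.33 (SE), adjusted p = 8.77e-10 into early pachytene. The H3 gene Hist2h3c2 was at 1.74 ± 1.04 CPM in early and 5.43 ± 2.04 CPM in late pachytene (1.62 ± 0.23 (SE), adjusted p = 6.27e-09), with LFD replicate 3 again the lowest. The mean of Hist2h3c2 in early round spermatids, 5.33 CPM, was close to that in late pachytene. The H2A gene Hist2h2ac was at 4.17 ± 1.94 CPM in early pachytene and did not pass the filter. From late pachytene to late spermatocytes 7 of the 34 genes were higher and 5 lower, where 33.6% of all genes were higher and 27.4% lower. The H4 gene Hist1h4h was among those that fell (-0.99, from 3.90 ± 1.57 CPM to 2.01 ± 1.09 CPM), and the call of Hist1h2bj upwards rested on 7 UMIs against 0.

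In spermatids, which no longer replicate their DNA, the polyadenylated transcripts of 3 core histone genes rose step by step. Hist1h2bp, an H2B gene that alone gave most of the H2B UMIs of these stages, was at 16.8, 29.7, 26.9, 22.7, 25.02 and 23.1 CPM in late pachytene, 90.4, 118, 103, 109, 82.8 and 74.2 CPM in late spermatocytes, 264, 305, 321, 279.7, 222 and 236 CPM in early round spermatids and 359, 411, 423, 393, 323 and 347 CPM in later round spermatids. Each stage lay above the one before it in every library, and the log2 changes were 2.05 ± 0.15 (SE), adjusted p = 7.16e-21, then 1.77 ± 0.13 (SE), adjusted p = 1.45e-19, and 0.63 ± 0.13 (SE), adjusted p = 1.35e-05. It was at 289.9, 339, 325, 297, 264 and 238 CPM at the start of elongation and fell to 17.3, 25.1, 29.7, 23.4, 23.5 and 18.2 CPM in elongating spermatids (-3.11 ± 0.15 (SE), adjusted p = 4.78e-29). Of the windows at the end of its 2-exon transcript 7.11% have a copy elsewhere, and of those of its single-exon transcript 59.2%.

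Hist1h4a, an H4 gene, was at 1.37, 3.87, 1.98, 2.15, 3.54 and 2.57 CPM in late pachytene, 8.85, 18.8, 14.7, 10.6, 14.3 and 8.45 CPM in late spermatocytes, 44.3, 52.5, 56.2, 47.8, 42.1 and 43.8 CPM in early round and 102, 107, 127, 118, 99.2 and 106 CPM in later round spermatids, and at 131, 136, 143, 148, 138 and 151 CPM at the start of elongation. No library of a stage overlapped the stage before it, and the log2 change was 2.23 ± 0.15 (SE), adjusted p = 2.52e-21, in early round spermatids, beside 2.36 in the step before and 1.35 and 0.77 in those after it. Hist1h3a, an H3 gene whose annotated end lies 622 bases from the start of Hist1h4a, went through the same steps. It was at 2.57, 2.75, 3.41, 3.36, 3.96 and 3.44 CPM in late spermatocytes, 15.01, 12.8, 12.6, 14.7, 14.8 and 13.4 CPM in early round spermatids, 32.3, 28.9, 25.4, 35.4, 25.8 and 28.8 CPM in later round spermatids and 50.3, 38.5, 42.1, 53.7, 48.7 and 44.2 CPM at the start of elongation, with log2 changes of 2.39, 1.23 and 1.06 between these. Its next neighbour on the other side, Hist1h1a, 1279 bases away, had the early pattern described above.

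Across these steps most of the other genes tested did not pass. From late spermatocytes to early round spermatids 5 of the 34 genes were higher and 5 lower (29.4% and 23.9% of all genes). From early to later round spermatids 5 were higher and 2 lower (26% and 30.5%), and at the start of elongation 5 were higher and 2 lower (25.1% and 30.2%). DESeq2, which shifted the median over all genes by 0.17 and 0.22 in the last 2, called 7 higher and 1 lower, and 6 higher and 1 lower. These shares of the 34 lie below the background, but 28 of the 34 had already fallen into early pachytene. For Hist1h1a, Hist1h1e and Hist1h2bm the highest stage had 1295, 633 and 615 times the level of the median stage. A gene so low in spermatids can hardly be called, so the low shares are no result about the histone genes. Hist3h2a was the gene with the smallest p at the start of elongation, from 4.37, 5.13, 5.62, 2.96, 5.25 and 4.02 CPM in later round spermatids to 14.1, 16.2, 12.3, 13.3, 11.7 and 16.1 CPM (2.07 ± 0.20 (SE), adjusted p = 5.34e-15), its second rise in the series. Hist2h2aa1, an H2A gene, was at 26.2, 10.5, 5.82, 11.9999, 40.3 and 26.5 CPM at the start of elongation and rose into later round spermatids and at the start of elongation (0.72 and 0.62). Its levels varied widely between libraries, all of its end windows have a copy elsewhere, and it overlaps Gm20634.

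In elongating spermatids 7 of the 34 were higher and 5 lower than at the start of elongation (28.2% and 28.4% of all genes), with 10 and 3 in DESeq2, which shifted the median over all genes by 0.33. The 5 that fell were Hist1h2bp, Hist1h4a (-1.32), Hist2h2aa1 (-1.15), Hist3h2a (-0.78) and Hist1h3a (-0.36), and the last 2 were not called by DESeq2 (adjusted p = 0.0517 and 0.759). The 7 that rose were genes of the early stages at low levels, among them Hist1h1t with 5.39 ± 2.22 CPM, Hist1h2ba with 2.28 ± 1.36 CPM and Hist1h2aa with 1.54 ± 0.81 CPM. Markers of early meiotic cells summed to 62.9 ± 7.26 CPM at the start of elongation and 78.6 ± 22.5 CPM in elongating spermatids, and Sertoli markers to 8.18 ± 3.87 and 29.5 ± 12.3 CPM. The part of these in the rise was not tested.

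Histone variants outside the clusters were read from a list of 21, of which 20 were in the count tables and 18 were tested. Between late pachytene and late spermatocytes 10 of the 18 were higher and 4 lower (33.6% and 27.4% of all genes), in early round spermatids 7 and 3 (29.4% and 23.9%), in later round spermatids 6 and 4 (26% and 30.5%), at the start of elongation 5 and 6 (25.1% and 30.2%) and in elongating spermatids 10 and 4 (28.2% and 28.4%). The counts in later round spermatids and at the start of elongation lie near the share of all genes. Hils1, a spermatid linker histone, rose from 33.2 ± 9.67 CPM in late pachytene to 208 ± 27.8 CPM (2.69), 938 ± 58.2 CPM (2.46) and then stood at 2577 ± 237 CPM at the start of elongation. H1fnt, another one, rose from 76.01 ± 29.1 CPM in early round to 546 ± 85.8 CPM in later round spermatids (3.04), and the H2A variant gene H2al2a from 173 ± 19.9 CPM to 956 ± 82.3 CPM at the start of elongation (2.88). The H3.3 gene H3f3b fell from 3232 ± 325 CPM in early to 676 ± 79.5 CPM in late pachytene (-2.10), and the linker variant H1fx was at 782 ± 152 CPM with Stra8, up from 269.7 ± 53.3 CPM (1.40). Of the 12 genes of histone replacement 5 had set the stages and are no finding. Among the others Brdt, which binds acetylated H4, rose from 97.1 ± 17.5 CPM with Stra8 to 325 ± 38.3 CPM without (1.98), and Chd5, a remodeller needed for the exchange, from 3.14 ± 1.52 CPM in late pachytene to 36.5 ± 3.99 CPM (3.44) and 119 ± 15.1 CPM (1.97).

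Free RNA in the droplets also gives UMIs of a gene in cells that do not express it. Hils1, a spermatid gene, was at 128 ± 42.7 CPM in spermatogonia and 469.7 ± 199 CPM in Sertoli cells. The share of barcodes with a UMI was therefore set beside that of Sertoli cells (median 10200 UMIs), after thinning each barcode to 4000 UMIs. Hist1h2aa was found in 82.6% of early meiotic barcodes with Stra8 (95% exact interval 78.6 to 86.2%, median 7052.5 UMIs) and 3.03% of Sertoli barcodes, and without thinning in 87.99% and 8.07%. Hist1h1t was found in 50.99% of early pachytene (47.1 to 54.9%, median 42391 UMIs) and 3.03% of Sertoli barcodes, without thinning in 94.4% and 12.4%. Hist1h2bp was found in 77.2% of later round spermatids (74.9 to 79.5%, median 36964.5 UMIs) and 10.6% of Sertoli barcodes, without thinning in 99.9% and 23.6%. Hist1h4a was found in 43.5% of spermatids starting elongation (39.02 to 48.1%, median 42429.5 UMIs) and 3.03% of Sertoli barcodes, without thinning in 98.1% and 10.6%. Each of these 4 shares was above that of the Sertoli barcodes. Of the macrophage barcodes (median 3808 UMIs), 71 were deep enough to be thinned, and of these 1.41% held a UMI of Hist1h2aa, 11.3% of Hist1h1t, 21.1% of Hist1h2bp and 7.04% of Hist1h4a. These shares too lie below the germ cell ones, and for the last 3 genes they lie above those of the Sertoli barcodes. The intervals cover counting error only.

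The somatic classes held 161 Sertoli, 173 macrophage and 142 interstitial barcodes. Interstitial barcodes were gated on Leydig, peritubular and stromal markers, and HFD replicate 3 held 2 of them. The Leydig markers Cyp17a1, Cyp11a1, Star and Hsd3b1 were highest in the Sertoli class, at 114, 70.4, 48.6 and 19.7 CPM pooled over libraries. The other markers of that list, among them Acta2 at 10445 CPM, were highest in the interstitial class. The class names therefore stand for gates and not for pure cell types. The sum of all histone genes was 355 ± 66.5 CPM in Sertoli, 237 ± 56.8 CPM in macrophage and 604 ± 76.7 CPM in interstitial barcodes, and H2B genes gave 55.0%, 38.6% and 56.6% of it. In macrophage barcodes, pooled over libraries, Hist1h2bp was at 64.9 CPM and Hist1h1t at 29.0 CPM, both genes with their highest level in germ cells. The part of free RNA in these sums was not tested. Of the 47 genes 6 had a higher level in a somatic class, pooled over libraries, than their highest germ cell mean over libraries. Besides Hist1h2bc these were Hist2h3c1, Hist2h3c2, Hist1h1b, Hist1h2be and Hist1h3d, at 10.6, 6.74, 5.93, 4.81 and 2.89 CPM. These low levels rest on few UMIs, since the somatic classes are small. Hist1h2bc, an H2B gene, was at 146, 154, 113, 159, 97.7 and 100.4 CPM in Sertoli barcodes and 341, 299, 135, 414, 208 and 171 CPM in interstitial barcodes, but at 4.98 ± 2.57 CPM in the germ cell stage where it was highest. The linker histone gene Hist1h1c was at 114, 176, 135, 152, 87.8 and 46.5 CPM in interstitial barcodes, beside 134 ± 34.2 CPM in early meiotic cells with Stra8.

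The libraries differed more in the sum of the genes that end near the stem-loop than in the sum of the other genes. The genes were divided, after the levels had been seen, into the 21 that end within 100 bases of the stem-loop and the 46 others. In spermatogonia the 21 summed to 346, 232, 129.8, 222, 456 and 710.4 CPM and the 46 others to 530.1, 581, 497, 510.2, 749 and 889 CPM. In early meiotic cells with Stra8 the 21 summed to 537, 431, 333, 521, 748 and 1301 CPM and the others to 2710.1, 2294, 2645, 2962, 3407 and 3877 CPM. HFD replicate 3 had the lowest sum of the 21 in 10 of 10 stages, and LFD replicate 2 or 3 had the highest in 9 of 10. The highest library had 1.83 to 5.47 times the level of the lowest (median 3.39), against 1.20 to 1.79 times (median 1.35) for the 46 others. Hist1h2ap, which ends 3 bases after its stem-loop, had the highest level of the 21 in spermatogonia and in cells with Stra8, and all of its end windows have a copy elsewhere. Over the other 20 genes, a sum added after the data had been seen, the highest library had 1.83 to 3.60 times the level of the lowest (median 2.56), with 3.15 times in spermatogonia and 2.11 times with Stra8. HFD replicate 3 had the lowest sum of these 20 in 9 of 10 stages. These 20 still hold Hist2h2aa1, whose end windows all have a copy elsewhere too. At the start of elongation it had a mean of 20.2 CPM, and the 20 genes together 69.6 CPM. Both were lowest in HFD replicate 3 and highest in LFD replicate 2. No sum was taken without Hist2h2aa1, so whether the other genes share the spread in spermatid stages was not tested. Whether the libraries differ in capture or in the transcripts themselves was not tested.

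**Figure D5:**
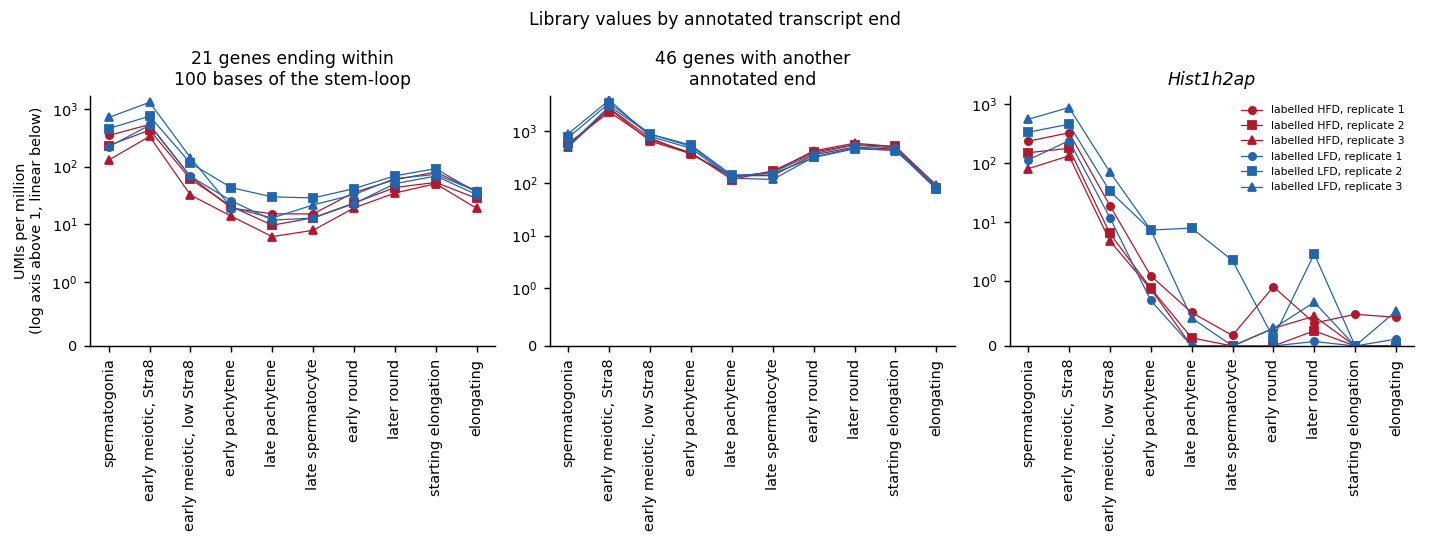
Summed UMIs per 1000000 UMIs of the 21 genes that end within 100 bases of the stem-loop, of the 46 others and of Hist1h2ap over 10 germ cell stages, with 1 line per library (red labelled HFD, blue labelled LFD). The lines of the 21 genes lie up to 5.47 times apart, those of the 46 others at most 1.79 times.

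The diets were compared over libraries, in the whole testis and within 10 stages, to ask whether the labelled diet moved any of these genes. In the whole testis the sum of all 67 genes was 385 ± 27.1 CPM (SD, n = 6). None of the 45 genes tested there passed (0% of 20727 genes by edgeR, with 4 histone genes and 471 genes in all, or 2.27%, at an unadjusted p under 0.05, and 0 and 0 in DESeq2, where 2 histone genes were at an unadjusted p under 0.05). Hist1h3c, an H3 gene, was at 0.355, 0.235, 0.222, 0.415, 0.637 and 0.689 CPM, and its log2 difference (HFD minus LFD) was -0.998 (SE 0.35, edgeR adjusted p = 0.986, 0.162 to 1.00 over the alternatives). Hist1h2ap was at 9.91, 4.73, 3.07, 4.66, 16.9 and 23.8 CPM, with a log2 difference of -1.25 (SE 0.54, adjusted p = 0.986, 0.195 to 1.00 over the alternatives). Hist3h2a was at 10.1, 13.05, 12.9, 10.1, 10.2 and 7.07 CPM, with a log2 difference of 0.44 (SE 0.19, adjusted p = 0.986, 0.310 to 1.00 over the alternatives). As plain differences of mean log2 levels within the replicate 1 libraries, with next to no haemoglobin UMIs, these 3 genes had -0.23, 1.09 and -0.01, and within the other 4 libraries they had -1.51, -2.39 and 0.61. Hist1h2ap thus differed in the opposite direction in the 2 sets, which hold 1 and 2 libraries per diet. In sums over the whole testis, fewer cells of a stage cannot be told apart from less RNA per cell. The share of UMIs in the first 3 stages was 4.85 to 5.93% in the HFD and 4.23 to 6.24% in the LFD libraries.

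Within the 10 stages tested, none of the clustered histone genes and no other gene passed in edgeR (0% of 7276 to 12480 genes). At an unadjusted p under 0.05 there were 4 of 21 genes in spermatogonia (1.83% of all genes), 7 of 17 with Stra8 (4.14%), 5 of 15 without Stra8 (2.75%), 5 of 16 in early pachytene (2.88%), 1 of 12 in late pachytene (5.55%), 2 of 9 in early round spermatids (8.1%) and 0 in each of the other 4 stages (1.93 to 5.93%). DESeq2 called 0 histone genes and 3 other genes, 1 in spermatogonia and 2 in late pachytene. Over all 6 libraries HFD was lower for 21 of 21 genes in spermatogonia, 16 of 17 with Stra8, 12 of 15 without and 12 of 16 in early pachytene, with median log2 differences of -0.44, -0.52, -0.47 and -0.46, where those over all genes were -0.04, 0.00, 0.00 and 0.01. The lean was not the same in the 2 sets of libraries. Within the replicate 1 libraries HFD was lower for 10 of 21 genes in spermatogonia, 12 of 17 with Stra8, 11 of 15 without and 15 of 16 in early pachytene (medians 0.00, -0.29, -0.35 and -0.64), and within the other 4 libraries for 20, 15, 10 and 8 of them (medians -0.73, -0.63, -0.36 and -0.02). The genes share libraries, and HFD replicate 3 and LFD replicates 2 and 3 stand at the ends of the range described above, so a count of signs over genes is not a count of independent measurements.

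The filter on low counts and single libraries changed some of these results. Without the filter edgeR called 1 histone gene by diet in spermatogonia (0.0277% of all genes), 1 with Stra8 (0.0166%), 1 without Stra8 (0.0764%), 2 in early pachytene (0.06%), 1 in late pachytene (0.0542%) and 1 in later round spermatids (0.161%), and 0 in the whole testis (0%) and in the other 4 stages (0.00936 to 0.267%). Without HFD replicate 1, Hist1h2ap passed in early meiotic cells without Stra8 (log2 difference -2.51, adjusted p = 0.0360, with 0.41% of all genes lower), and Hist1h1t (-0.61, 0.00664), Hist1h2ba (-0.68, 0.0177) and Hist1h2aa (-0.72, 0.0186) passed in early pachytene, where 4.84% of all genes were lower. Without the same library Hist1h2aa (-2.30, 0.0125) and Hist1h1t (-0.49, 0.0447) passed in late pachytene (5.37% of all genes lower), Hist1h2bp (0.32, 0.0436) in early round spermatids (7.77% higher) and Hist2h2aa1 (-1.61, 0.0289) in later round spermatids (7.8% lower). Without LFD replicate 1, Hist1h2ap passed in early meiotic cells with Stra8 (-1.60, 0.0281, with 0.0128% of all genes lower). In early pachytene the 3 testis variants had been at 26.2, 52.9, 32.1, 71.6, 75.3 and 43.9 CPM for Hist1h2aa, 45.1, 70.4, 54.7, 99.1, 115 and 54.8 CPM for Hist1h2ba and 229, 167, 199, 255, 255 and 306 CPM for Hist1h1t, and the ranges of the diets overlap for Hist1h2aa and Hist1h2ba but not for Hist1h1t, with all 6 libraries in and 0% of genes called.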

How the data were processed

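Testes of 8-week-old mice were dissociated, and the authors loaded single cells on the droplet platform of 10x Genomics, for 3 libraries labelled HFD and 3 labelled LFD. The labels name version 2 of the 3-prime kit and the methods of the study a later one. According to the labels and methods, the authors aligned reads to mm10 and counted UMIs with Cell Ranger 6.0.1, and the deposited matrices hold these counts, raw and not normalized, for the barcodes it called as cells. The kit reads the 3-prime part of polyadenylated RNA, and only reads that map uniquely are counted. The filters of the study (200 to 40000 genes per barcode) remove none of the barcodes, which held 448 to 13383 genes. Gene positions and transcript ends are from a GENCODE annotation of GRCm38, and promoter windows from RefSeq.

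The histone genes and gene lists were chosen with earlier results of these data known. The thresholds of the stages were set after the files were seen and before histone levels by stage were looked at. Markers were summed as UMIs per 10000 in barcodes of at least 3000, 4000 or 10000 UMIs, depending on the stage, with minima of 8 for spermatogonial, 25 for early meiotic and pachytene, 3 for Stra8, 35 for later round and 1300 for elongating markers. Of the markers and listed genes 2 were not found in the tables. No doublets were removed, as in the study. Scrublet (scanpy 1.11.5) scored the barcodes for doublets, and an alternative left out the 3356 barcodes (6.86%) that scored highest.

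Counts were summed per library and stage, so that the library was the replicate, and tested with the edgeR 4.0.16 (R 4.3.3) quasi-likelihood test with TMM scaling and its default filter on low counts, two-sided. Adjusted p-values are by Benjamini-Hochberg over all genes tested, with a threshold of 0.05. Consecutive stages and S-phase groups were fitted with the library as a block, the diets on each stage with at least 20 barcodes in every library. The study used DESeq2, and here DESeq2 1.42.0 was an alternative. Others were no filter, leaving out each library, no likely doublets, only barcodes of at least 5000 UMIs, a replicate block, a term for the replicate 1 libraries, only staged barcodes and a mean over barcodes. The scripts were tested on simulated data. Genes were named by a rule: the 3 testis variants, the 4 other genes of each type with the most UMIs, up to 4 called per direction and comparison, the 3 with the smallest p by diet in the whole testis, and up to 3 per list. Genes named only by their highest stage or by a motif were singled out after their values were seen. Levels of CPM + 0.1 in the plots are for display.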

Additional observations from a re-analysis of the deposited data

Results flagged for a closer look

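Of 73 sums of histone UMIs per type and stage over the 6 libraries, 4 had a library that stood apart from the other 5 by Dixon's criterion at 95%, where chance gives about 1 in 20. The H3 sum in early meiotic cells with Stra8 was 38.6 CPM in LFD replicate 3, with the nearest library at 27.4 CPM and the lowest at 22.0 CPM. The H2A sum in late pachytene was 46.005 CPM in LFD replicate 2, with the nearest library at 32.4 CPM. The H3 sum in late pachytene was 4.28 CPM in LFD replicate 3, below the nearest library at 8.51 CPM. The H2A sum in late spermatocytes was 36.3 CPM in LFD replicate 2, with the nearest library at 22.2 CPM. LFD replicates 2 and 3 are also the libraries with the highest sums of the genes that end at the stem-loop in 9 of 10 stages. LFD replicate 3 held the fewest UMIs of the 6 libraries. The part of depth, of the barcodes in each stage and of the capture of these transcripts in the 4 sums was not tested.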

How the results depend on the processing

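Of the results that answer a comparison, 368 values under the alternatives kept their direction and their side of the threshold or stayed close to the value given, and 41 moved. Of the values for single named genes 664 kept both, 25 kept the direction and were no longer past the threshold, and 0 reversed. The cause of these moves was not tested, except that without a filter more genes are tested. Without a filter on low counts the diet comparisons called 7 histone genes in all, with 1 in spermatogonia (0.0277% of all genes), 1 with Stra8 (0.0166%), 1 without Stra8 (0.0764%), 2 in early pachytene (0.06%), 1 in late pachytene (0.0542%) and 1 in later round spermatids (0.161%). Hist1h2ap was called in 4 of these stages. Without a filter 3 genes were lower with Stra8 than in spermatogonia, 5 were higher in early pachytene, 9 lower in late spermatocytes, 10 higher in later round spermatids and 5 lower at the start of elongation, and 25 were called in the S-phase comparison, 22 of them higher. DESeq2 called 1 gene lower in later round spermatids, 1 at the start of elongation, 3 in elongating spermatids and 1 in the S-phase comparison, where it called 2086 of all genes against 3425 in edgeR. Without likely doublets Hist1h2ae did not pass the filter, so that 0 genes were lower with Stra8 than in spermatogonia in edgeR, 1 was lower in later round spermatids and 1 in the S-phase comparison.

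With 1 library left out, the histone genes called by diet numbered 0 to 8 over the stages together, 8 without HFD replicate 1 and 1 without LFD replicate 1, with 0 to 1 with Stra8, 0 to 1 without Stra8, 0 to 3 in early pachytene, 0 to 2 in late pachytene, 0 to 1 in early round and 0 to 1 in later round spermatids. Those lower between consecutive stages numbered 2 to 5 in early round spermatids, 1 to 3 in later round spermatids and 1 to 2 at the start of elongation, and those lower in the S-phase comparison 0 to 2. With the replicate number as a block, 0 histone genes and 24 of all genes were called by diet in the whole testis. The numbers are not stated to pair the mice, and the deviations of same-numbered libraries correlated at 0.485, 0.0297 and 0.261 for replicates 1, 2 and 3, while HFD replicate 2 correlated best with LFD replicate 3 (0.298). A term for the replicate 1 libraries and barcodes of at least 5000 UMIs changed none of the counts of histone genes called by diet. A mean over barcodes was taken only for summed levels at their highest stage and not for the diet comparisons. Depth limits what could be seen, since 33 of the 67 genes had too few UMIs to be compared between stages and 49 between S-phase groups.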
